A study of Sus scrofa with 12 samples.

Results

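Autophagy delivers worn organelles and protein aggregates to the lysosome inside double-membrane vesicles, and 6 genes of this route were examined in the ovaries of pregnant sows. They were ATG12, ATG5, BECN1, MAP1LC3B and SQSTM1, which build and load the vesicle, and RTN3, a tubule-forming protein of the endoplasmic reticulum (ER) that also serves as a receptor for ER turnover. The members were the probe sets whose only gene symbol in the array annotation was 1 of these names, which gave 11 of the 24123 probe sets on the array. ATG12 and RTN3 had 3 probe sets each, BECN1 and MAP1LC3B had 2 each, SQSTM1 had 1, and ATG5 had no probe set under its name and was not analysed here. A probe set was tested when it exceeded a log2 value of 4 in at least 6 sows, which kept 10 of the 11 members and 13390 probe sets in all. The genes were chosen by a theme that rested on the high minus low differences of these same 12 sows, with those of ATG12 and RTN3 already known, so the differences of the members between the groups are given as descriptions without a p-value.

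The high prolificacy group held 6 Iberian x Meishan F2 sows with a higher estimated breeding value (EBV), and the low prolificacy group held 6 sows of the same cross with a lower EBV. All 12 were killed on day 30 of pregnancy, and each sample stands for both ovaries of 1 sow, averaged in a way the labels do not detail. The question the series addresses is which ovarian transcripts differ with prolificacy. Values are log2 expression values per probe set of a porcine Affymetrix array, so that a difference of 1 is 2-fold, and levels of different probe sets cannot be set against each other. The number of sows limits the precision, with a median standard error of a group difference of 0.16 over the probe sets tested.

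In autophagy, as worked out in yeast, human and mouse cells, a lipid kinase complex around BECN1 marks the membrane where a vesicle will form. ATG12 is then joined to ATG5 by a ubiquitin-like reaction, and this conjugate helps to attach MAP1LC3B, known as LC3B, to the lipid of the growing membrane. Receptors such as SQSTM1, known as p62, hold cargo and bind LC3B, and the long form of RTN3 does the same for tubules of the ER. The corpus luteum, the steroid-secreting body that dominates the pregnant pig ovary, is rich in smooth ER. The activity of the route is set largely at the protein level, so transcript levels do not measure it.

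Luteal markers were bright in all sows, with a mean log2 value over 6 of 6 markers from 12.84 to 13.66 in high and from 13.14 to 13.40 in low prolificacy sows. Markers of growing follicles differed widely among sows, with a mean over 4 of 7 markers from 5.42 to 10.40 in high and from 7.25 to 10.05 in low prolificacy sows, and FSHR, AMH and FOXL2 did not pass the filter. In whole ovary, fewer cells of a type and less RNA per cell cannot be told apart. High 2 and high 3 had the lowest mean rank correlation with the other arrays, 0.982 and 0.981. The 3' minus 5' difference of the actin and GAPDH control transcripts, which grows as RNA is degraded or copied short, ran from 1.89 to 2.78 in high and from 1.83 to 2.03 in low prolificacy sows. Its means were 2.30 and 1.95, and every high prolificacy sow except high 3 lay above all low prolificacy sows. This measure thus largely followed the groups, and the 2 cannot be fully told apart. The part of the 3' difference in the differences below was not tested. For the members the differences with it as a covariate are given where they moved by more than 1.5 times.

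ATG12 and RTN3 stood lower in high prolificacy sows, BECN1 stood higher in them, and MAP1LC3B and SQSTM1 differed by less than 0.2 on the log2 scale. In all, 8 of the 10 tested probe sets were lower and 2 were higher in high prolificacy sows. The median difference of the 10 was -0.22, against -0.010 over all probe sets tested, of which 52.4% were lower in high prolificacy sows. Limma with Benjamini-Hochberg adjustment called 0 of the 13390 probe sets at 0.05 (0%), while 755 lay under 0.05 before adjustment (5.64%). The count was also 0 when limma used array weights or a robust variance trend. High and low prolificacy sows lay wholly apart in 2 of the 10 member probe sets, both of RTN3 and lower in high prolificacy sows. Groups lay apart in 0.471% of all probe sets tested, or 0.336% counting only those lower in high prolificacy sows. Since the contrast itself chose the members, nothing is read from that comparison.

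**Figure D1:**
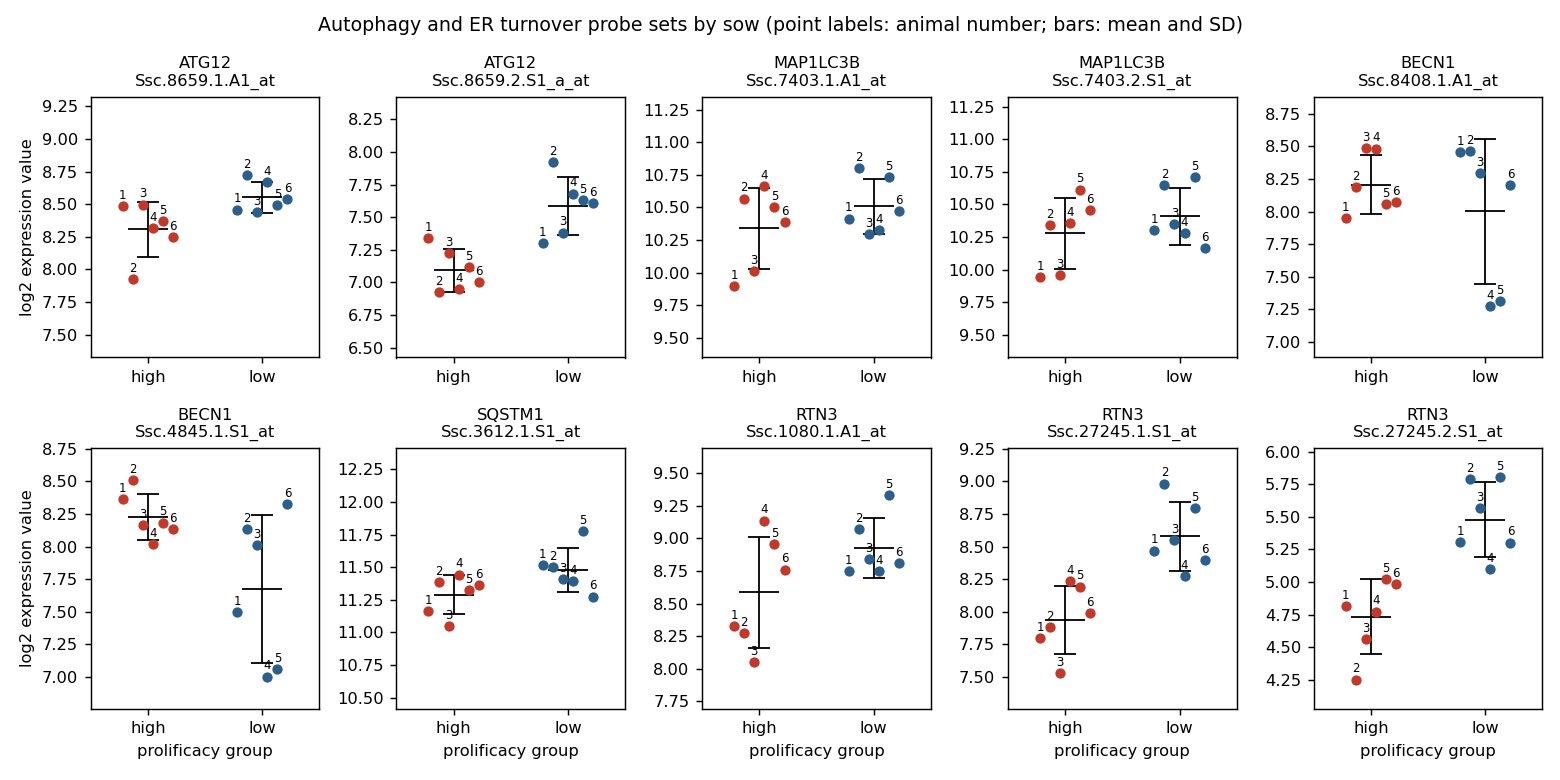
Log2 expression value (vertical axis, the same span of 2 in each panel) of the 10 tested probe sets in the 6 high (red, left) and 6 low (blue, right) prolificacy sows. Each point is 1 sow with its animal number, and the bars give the mean and SD. The groups are apart in RTN3 Ssc.27245.1.S1_at and Ssc.27245.2.S1_at, and low 4 and low 5 stand lowest in both BECN1 probe sets.

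ATG12, the ubiquitin-like partner of ATG5, was lower in high prolificacy sows in both tested probe sets. In probe set Ssc.8659.2.S1_a_at the lowest, median and highest values were 6.93, 7.06 and 7.34 in high prolificacy sows, against 7.30, 7.62 and 7.92 in low prolificacy sows. The groups met only at high 1, the highest of its group, and low 1, the lowest of its group. The means were 7.09 ± 0.16 in high prolificacy sows and 7.59 ± 0.22 in the low group (SD, n = 6 each, as throughout), a log2 difference of -0.50 with a standard error of 0.12, or 1.41-fold lower.

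The brighter ATG12 probe set, Ssc.8659.1.A1_at, had 7.92, 8.34 and 8.50 as lowest, median and highest value in high prolificacy sows, against 8.44, 8.52 and 8.73 in low prolificacy sows. All 6 high prolificacy sows lay below the low group's mean, but the ranges overlapped. The difference was -0.25 with a standard error of 0.11, and shrank to -0.059 once the 3' difference was a covariate. The third probe set, Ssc.8659.3.S1_at, stayed under 4 in every sow, at 2.39 ± 0.076 in high prolificacy sows and 2.36 ± 0.0083 in the low group, and was not tested. The 2 tested probe sets varied together among sows of 1 group, with a Pearson r of 0.76 over 12 sows after removal of the group means (permutation adjusted p = 0.00429; Spearman rho 0.87, adjusted p = 0.00192; 6 pairs of probe sets of 1 gene in the family). Without high 2 and high 3, the sows farthest from the median, r was 0.88.

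MAP1LC3B, whose protein coats the vesicle membrane, was read by a pair of probe sets that gave like differences. Ssc.7403.1.A1_at had 9.90, 10.45 and 10.66 as lowest, median and highest value in high prolificacy sows, against 10.29, 10.44 and 10.80 in low prolificacy sows. High 1 and high 3 were the lowest of all sows, and the medians of the groups lay together. The difference was -0.17 with a standard error of 0.15 in this probe set and -0.13 with a standard error of 0.14 in Ssc.7403.2.S1_at, within the spread between sows. These differences moved by more than 1.5 times with the sows used: they were -0.081 and -0.064 without high 1, -0.10 and -0.067 without high 3, and -0.11 and -0.083 without low 2. In Ssc.7403.2.S1_at the difference was also -0.072 without low 5 and -0.198 without high 5. With the 3' difference as a covariate they were -0.42 and -0.24. The pair had a within-group r of 0.83 (permutation adjusted p = 0.0096; rho 0.76, adjusted p = 0.0176), and 0.70 without high 1 and high 3.

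BECN1, the core of the lipid kinase complex that starts a vesicle, was the member that stood higher in high prolificacy sows, and its difference rested on a few low prolificacy sows. In Ssc.4845.1.S1_at the lowest, median and highest values were 8.02, 8.18 and 8.51 in high prolificacy sows, against 7.00, 7.75 and 8.33 in low prolificacy sows. Low 4 stood at 7.00, low 5 at 7.06 and low 1 at 7.50, while the other 3 low prolificacy sows lay among or near the high group. The means were 8.23 ± 0.18 in high and 7.67 ± 0.57 in low prolificacy sows, with a difference of 0.56 with a standard error of 0.23, or 1.47-fold higher in high prolificacy sows.

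In the other BECN1 probe set, Ssc.8408.1.A1_at, the values were 7.95, 8.13 and 8.49 in high prolificacy sows, against 7.28, 8.25 and 8.47 in low prolificacy sows. Low 4 and low 5 were again the lowest, at 7.28 and 7.31, and low 1, at 8.46, was not low here. The difference was 0.20 with a standard error of 0.23. It was 0.060 without low 4 and 0.067 without low 5, and without both it turned to -0.15, while that of Ssc.4845.1.S1_at became 0.24. The within-group r of the pair was 0.66 (permutation adjusted p = 0.115; rho 0.47, adjusted p = 0.239), made up of -0.47 in high and 0.81 in low prolificacy sows, so within the high group the probe sets did not follow each other.

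SQSTM1, the receptor that carries ubiquitin-tagged cargo, varied least among the 10 tested members, with a within-group SD of 0.16 that lay above that of 13.0% of the probe sets tested. Ssc.3612.1.S1_at, its only probe set, had 11.05, 11.34 and 11.44 as lowest, median and highest value in high prolificacy sows, against 11.27, 11.45 and 11.78 in low prolificacy sows. All 6 high prolificacy sows lay below the low group's mean, and 3 low prolificacy sows lay above every high prolificacy sow. The difference was -0.19 with a standard error of 0.11, and -0.32 once the 3' difference was a covariate.

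RTN3 bends ER membrane into tubules, and its long form links them to LC3B. It was lower in high prolificacy sows in all 3 of its probe sets, and apart between the groups in 2 of them. These 2 share the cluster number 27245 in their names, while the third carries 1080. Which form of RTN3 each probe set reads was not examined. In Ssc.27245.2.S1_at the lowest, median and highest values were 4.25, 4.79 and 5.02 in high prolificacy sows, against 5.10, 5.44 and 5.80 in low prolificacy sows. The gap between high 5, the highest of its group, and low 4, the lowest of its group, was narrow. The means were 4.74 ± 0.29 in high and 5.48 ± 0.29 in low prolificacy sows, with a difference of -0.74 with a standard error of 0.16, or 1.67-fold lower. These values lie near the filter level of 4. How far the background correction, which compresses the differences of dim probe sets, acts at this level was not tested.

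The brighter probe set Ssc.27245.1.S1_at had 7.53, 7.94 and 8.23 as lowest, median and highest value in high prolificacy sows, against 8.27, 8.51 and 8.98 in low prolificacy sows. High 4 and low 4 were the neighbours across the gap. The difference was -0.64 with a standard error of 0.15, and it ran from -0.70 to -0.56 when each sow was left out in turn.

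The third RTN3 probe set, Ssc.1080.1.A1_at, was the brightest and did not separate the groups. It had 8.05, 8.54 and 9.14 in high prolificacy sows, against 8.75, 8.83 and 9.33 in low prolificacy sows. High 1, high 2 and high 3 lay below every low prolificacy sow, while high 4 and high 5 lay above the low group's mean. The difference was -0.34 with a standard error of 0.19, and -0.13 without high 2 and high 3. The 3 probe sets varied together within groups, with r of 0.86, 0.72 and 0.68 (permutation adjusted p = 0.0027, 0.0194 and 0.0194; rho 0.80, 0.69 and 0.66).

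**Figure D2:**
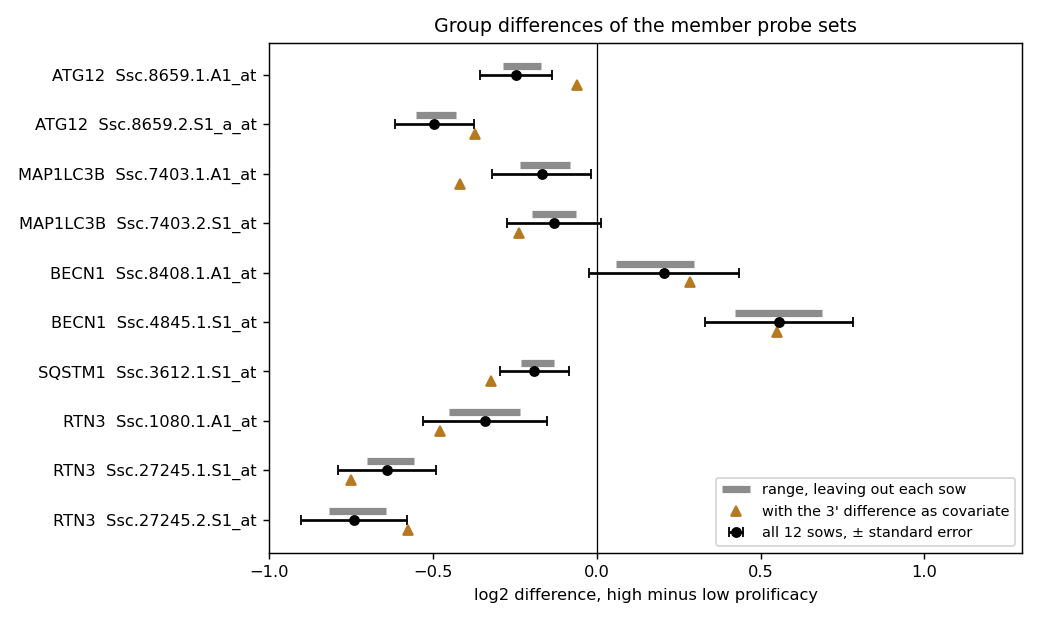
Log2 difference, high minus low prolificacy (horizontal axis), of the 10 tested probe sets. Black points and bars give the value in all 12 sows ± its standard error, grey bars the range when each sow is left out, and triangles the value after adjustment for the 3' difference. The 3 RTN3 and 2 ATG12 probe sets lie below 0 under all of these, as do SQSTM1 and the brighter MAP1LC3B probe set. For the other MAP1LC3B probe set only the standard error bar reaches past 0. ATG12 Ssc.8659.1.A1_at moves to -0.059 with the covariate.

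Among sows of 1 group, SQSTM1 varied with MAP1LC3B and with RTN3, and no pair with ATG12 or BECN1 passed. Which of the pairs among SQSTM1, MAP1LC3B and RTN3 passed varied with the setting, as given below. This covariation uses the spread within groups, with the group means removed. Whether that spread also entered the choice of the genes is not known. In the probe set of each gene with the highest mean over all sows, which for BECN1 was Ssc.8408.1.A1_at, MAP1LC3B and SQSTM1 had a Pearson r of 0.75 over 12 sows with the group means removed (permutation p = 0.00827, adjusted p = 0.0413 over 10 pairs of genes). SQSTM1 and RTN3 had an r of 0.73 (permutation p = 0.00678, adjusted p = 0.0413). MAP1LC3B and RTN3 had an r of 0.73 without passing (permutation p = 0.0218, adjusted p = 0.0726).

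The same pairs had Spearman rho of 0.74, 0.59 and 0.62, with permutation adjusted p of 0.131, 0.184 and 0.184, so no pair passed by rank. Within the high group r was 0.92, 0.75 and 0.69 for MAP1LC3B with SQSTM1, SQSTM1 with RTN3 and MAP1LC3B with RTN3, and within the low group it was 0.60, 0.82 and 0.84. Without the 2 sows farthest from the median of the first gene, r was 0.66, 0.54 and 0.62. With quantile normalization the r values were 0.66, 0.66 and 0.72 and 0 pairs passed (adjusted p = 0.0768, 0.0768 and 0.0904). Both pairs with SQSTM1 passed without low 1 or low 6. Without high 2, SQSTM1 with RTN3 and MAP1LC3B with RTN3 passed (permutation adjusted p = 0.0121 each) and MAP1LC3B with SQSTM1 did not (adjusted p = 0.0543). No pair passed without any other single sow. With the mean of all probe sets of a gene, MAP1LC3B passed with SQSTM1 and with RTN3 (permutation adjusted p = 0.04 each). SQSTM1 with RTN3 did not pass there (adjusted p = 0.0799). Without high 2 and high 3, chosen after seeing the data, MAP1LC3B with RTN3 had an r of 0.93 (permutation adjusted p = 0.0265). SQSTM1 with RTN3 also passed then (adjusted p = 0.0346), and MAP1LC3B with SQSTM1 did not (adjusted p = 0.0963). The 7 pairs of different genes with ATG12 or BECN1 had r from -0.44 to 0.065, with permutation adjusted p no lower than 0.371. That the pairs differ from each other in r was not tested.

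**Figure D3:**
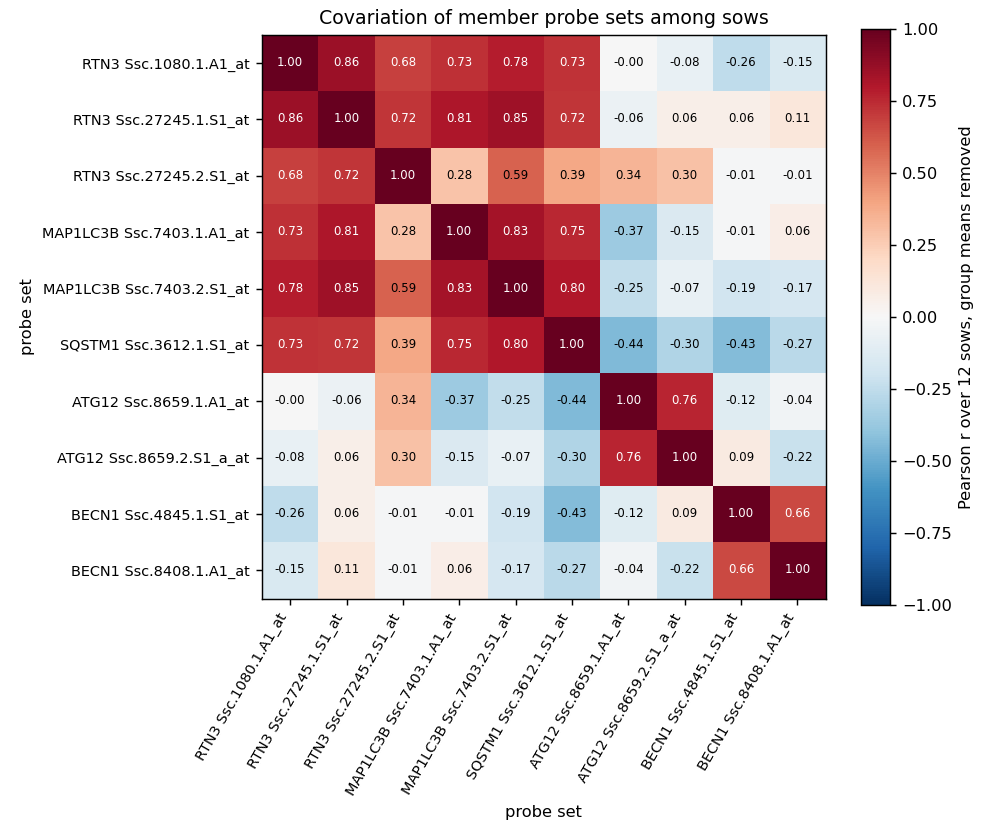
Pearson r between the 10 tested probe sets over 12 sows with the group means removed (colour scale and numbers, -1 to 1). RTN3, MAP1LC3B and SQSTM1 form a block with r up to 0.85 between different genes. In it the dim RTN3 probe set Ssc.27245.2.S1_at is the weakest, with r of 0.28 to MAP1LC3B Ssc.7403.1.A1_at and 0.39 to SQSTM1.

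MAP1LC3B and RTN3 were lower in ovaries with more transcript of stromal matrix genes. The stroma score of a sow averaged COL1A2, DCN and LUM after each was centred on its mean over all sows (3 of 6 markers, as COL3A1 did not pass the filter and COL1A1 and PDGFRA had no probe set). It ran from -0.58 to 0.90 in high and from -0.69 to 0.59 in low prolificacy sows. Against it MAP1LC3B had a within-group r of -0.83 (permutation p = 0.0008, adjusted p = 0.024 over 30 relations) and a rho of -0.88 (adjusted p = 0.0148). RTN3 had an r of -0.78 (adjusted p = 0.0334) and a rho of -0.82 (adjusted p = 0.0148). SQSTM1 had an r of -0.65 without passing (permutation adjusted p = 0.104).

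Without the 2 sows farthest from the median of the gene, the r with the stroma score was -0.87 for MAP1LC3B, -0.70 for RTN3 and -0.54 for SQSTM1. For MAP1LC3B it was -0.82 within the high and -0.87 within the low group, and for RTN3 -0.85 within the high and -0.70 within the low group. With the follicle score SQSTM1 had an r of -0.74 (permutation adjusted p = 0.0476; rho -0.76, adjusted p = 0.0619) and -0.73 without high 3 and low 5. MAP1LC3B had an r of -0.75 with it without passing (permutation adjusted p = 0.104; rho -0.74, adjusted p = 0.0735), and -0.54 without high 1 and high 3. MAP1LC3B was related to the luteal score by rank, with a rho of 0.85 (permutation adjusted p = 0.029) beside an r of 0.77 (adjusted p = 0.0878). In all, 3 of the 30 relations passed by r and 3 by rho, and by r none passed with quantile normalization. MAP1LC3B with the stroma score passed without each single sow other than high 3, high 4, high 6 or low 2. RTN3 with it passed only without high 2, low 1, low 3, low 5 or low 6, and SQSTM1 with the follicle score passed without low 1 or low 3 only. The part of tissue makeup in the covariation of the 3 genes was not tested.

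**Figure D4:**
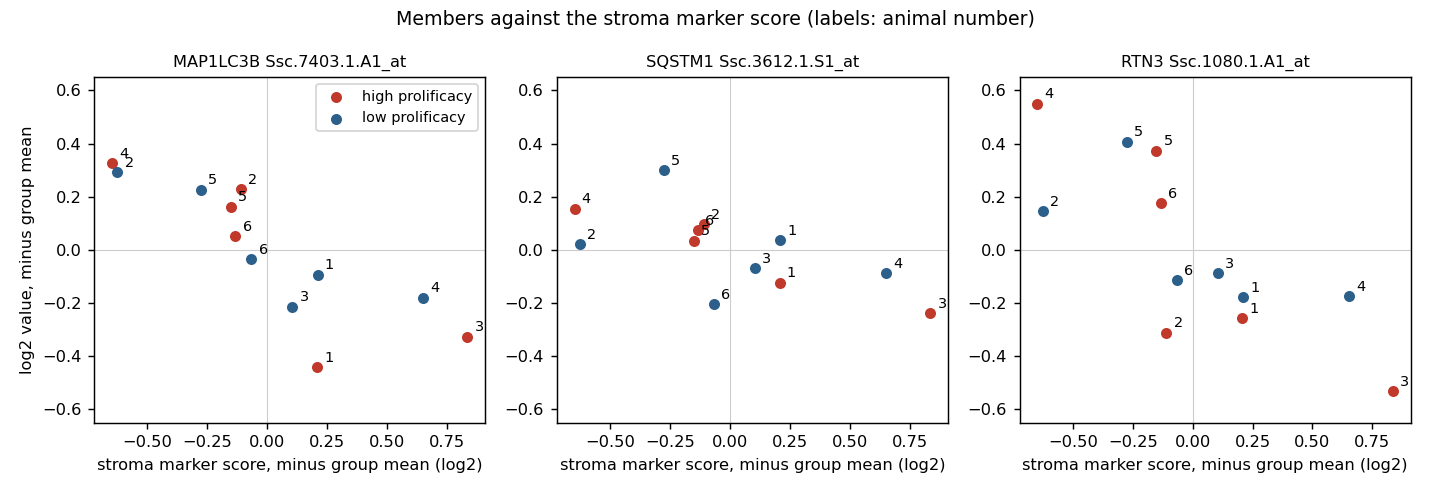
Log2 value minus the group mean of MAP1LC3B, SQSTM1 and RTN3 (vertical axes) against the stroma marker score minus its group mean (horizontal axes) in high (red) and low (blue) prolificacy sows, labelled by animal number. MAP1LC3B and RTN3 fall with the score in both groups, with r of -0.83 and -0.78, and high 3 has the highest score.

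No relation of ATG12 or BECN1 to these measures passed with the group means removed. In the brightest probe set of ATG12 the within-group r was -0.72 with the 3' difference (permutation adjusted p = 0.104; rho -0.52, adjusted p = 0.233) and 0.64 with the follicle score (adjusted p = 0.131; rho 0.55, adjusted p = 0.221). The first came from the high group, with r of -0.85 there and 0.022 in the low group, and was -0.18 without high 2 and high 3. Without removal of the group means it was -0.83 and passed (permutation adjusted p = 0.025), a value that includes the difference between the groups. BECN1 had an r of -0.58 with the macrophage score, the mean of CD14, CD163, AIF1 and C1QA (permutation adjusted p = 0.131; rho -0.50, adjusted p = 0.221), and of -0.45 without low 4 and low 5.

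The genes most like each of ATG12 and RTN3 in pattern were taken from the 6656 tested probe sets with 1 symbol by Pearson r with the brightest probe set over the 12 sows, group means removed. For RTN3 they were TMEM222 (r of 0.95), RHBDD2 (0.95), TRAPPC4 (0.94), ARV1 (0.93) and CTSD (0.93), and their r within a single group ran from 0.92 to 0.96. TRAPPC4 is a subunit of a vesicle-tethering complex, ARV1 a lipid-handling protein of the ER, and CTSD the lysosomal protease cathepsin D. No function is given for the other genes named here, and a shared function was not tested. For ATG12 they were SUGP2 (0.93), SCAMP4 (0.89), CFAP20 (0.89), UNK (0.88) and NAA50 (0.87), and the r of UNK and NAA50 within the low group was 0.47 and 0.53. As the highest of 6656 values from 12 sows these correlations are a description of likeness only. The high minus low differences ran from -0.29 to 0.0022 for the RTN3 genes and from -0.50 to 0.19 for the ATG12 genes.

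Other genes of autophagy and the ER were taken from 8 lists of 148 names, of which 95 were on the array and 90 passed the filter. In limma with adjustment over all probe sets, 0 of the 90 passed in either direction, with 0.752 as the smallest adjusted p. Before adjustment, 2 were higher and 3 lower in high prolificacy sows at 0.05, against 2.26% and 3.38% of all probe sets tested. Over the 90 genes the median difference was -0.042, and 58 were lower in high prolificacy sows. Over all probe sets tested the median was -0.010, and 52.4% were lower. The genes were measured in the same 12 sows and can vary together, so the counts below are descriptions. Of the 30 genes named by rule below, 22 moved by more than 1.5 times with the 3' difference as a covariate: 12 became wider, 7 narrower and 3 turned in sign. Among the wider were PRKAB2 at -0.81, PRKAA2 at -0.78, DDIT3 at -0.62 and NCOA4 at -0.40, and among the narrower were OPTN at 0.12, NRBF2 at -0.096, PIK3C3 at 0.038 and HSPA5 at 0.020.

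Of the genes that shape the ER, to which RTN3 is related by function, 11 of 11 tested were lower in high prolificacy sows. Of all probe sets tested, 52.4% were lower. None of the 11 genes passed. Their median difference was -0.13, with REEP5, a tubule-forming protein, at -0.28 (8.70 ± 0.31 in high prolificacy sows and 8.98 ± 0.21 in the low group), TMEM33 at -0.23, LNPK, which stabilises junctions of tubules, at -0.21, and the reticulon RTN4 at -0.12. The limma adjusted p of these 4 ran from 0.888 to 0.952. Without high 2 and high 3 the list had 7 lower and 4 higher genes. The counts were also 7 and 4 when the 3' difference was a covariate, with a median of -0.28.

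Genes of autophagosome fusion and the lysosome were lower in 17 of 19 cases, against 52.4% of all probe sets tested. The median difference of the 19 was -0.15. ATP6V1A, the catalytic subunit of the proton pump that acidifies lysosomes, stood at 7.79 ± 0.40 in high prolificacy sows and 8.35 ± 0.27 in the low group, differing by -0.56 (limma adjusted p = 0.771). VPS39, a subunit of the HOPS tether that joins vesicles to lysosomes, differed by -0.48 (adjusted p = 0.752), and VPS16, another subunit of that tether, by 0.36 in the other direction (adjusted p = 0.771). ATP6AP2, an accessory protein of the pump and the brightest of the list, differed by -0.15. The lysosomal channel MCOLN1, named after its values were seen, had the widest difference of the list, -1.17 (limma adjusted p = 0.801). The median of the list was -0.043 without high 2 and high 3, and -0.081, -0.089 and -0.082 without high 3, low 3 and low 5.

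Of the genes that start autophagy 8 of 11 were higher in high prolificacy sows, with a median difference of 0.092. BECN1 was higher too, but its brightest probe set turned to -0.15 without low 4 and low 5. In that setting 8 of the 11 list genes were still higher. WIPI2, which reads the lipid made by the BECN1 complex, differed by 0.35 and PIK3C3, the kinase of that complex, by 0.16, while its regulator NRBF2 differed by -0.21 and SH3GLB1 by 0.011. The limma adjusted p of these 4 ran from 0.899 to 0.992. With the 3' difference or albumin as a covariate 6 of the 11 were higher. Genes of the 2 conjugation reactions, in which ATG12 and MAP1LC3B take part, were lower in 7 of 10 cases with a median of -0.051. ATG7, the enzyme that activates both ATG12 and LC3B, stood at 7.38 ± 0.089 in high prolificacy sows and 7.13 ± 0.22 in the low group, differing by 0.25 (limma adjusted p = 0.844). ATG4C, an LC3-processing protease, differed by -0.30, ATG3, which transfers LC3B to lipid, by -0.13, and the LC3 relative GABARAP by -0.031. The list median was -0.0047 without high 2 and high 3 and -0.030 without high 4, and after adjustment for the 3' difference ATG3 stood at 0.042 and GABARAP at 0.17.

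Receptors beside SQSTM1 and RTN3 had medians near 0. Of 8 cargo receptors 6 were higher in high prolificacy sows with a median of 0.046, and 4 of 8 were after adjustment for the 3' difference. The median was 0.0093 without low 1 and 0.085 without low 5. Among them stood OPTN at 0.32, WDFY3 at 0.13 and the ferritin receptor NCOA4 at -0.196. Of 6 receptors for ER turnover 3 were higher and 3 lower, with a median of -0.054, which became 0.025 without high 2. With the 3' difference as a covariate 0 were higher and 6 lower, with a median of -0.15. RETREG1, the receptor for ER sheets, stood at 9.05 ± 0.74 in high prolificacy sows and 8.56 ± 0.19 in the low group, differing by 0.49 (limma adjusted p = 0.899), which was 0.199 without high 2, whose removal moved it most, and turned to -0.18 with the 3' difference as a covariate. SEC62 and CCPG1 differed by -0.12 and -0.14. Both were nearer to 0 without high 2 and high 3, at -0.018 and -0.026, and the median of this list was then 0.097.

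Genes of ER stress and ER-associated degradation were lower in 11 of 15 cases with a median of -0.040. The chaperone HSPA5, known as BiP, differed by 0.17, DNAJB9 by -0.24, DDIT3, a transcription factor of prolonged ER stress, by -0.23 and PDIA3 by -0.18. Genes of mTOR and AMPK, the nutrient sensors that hold back and release autophagy, were higher in 6 of 10 cases with a median of 0.015. PRKAA2 differed by -0.39, STK11 by 0.21, PRKAB2 by -0.15 and RHEB by -0.035. The medians of these lists ran from -0.11 to -0.015 and from -0.038 to 0.034 when each sow was left out, so the second had no fixed direction. With the 3' difference as a covariate they were -0.18 and -0.027. The limma adjusted p of these 8 genes ran from 0.923 to 0.988.

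**Figure D5:**
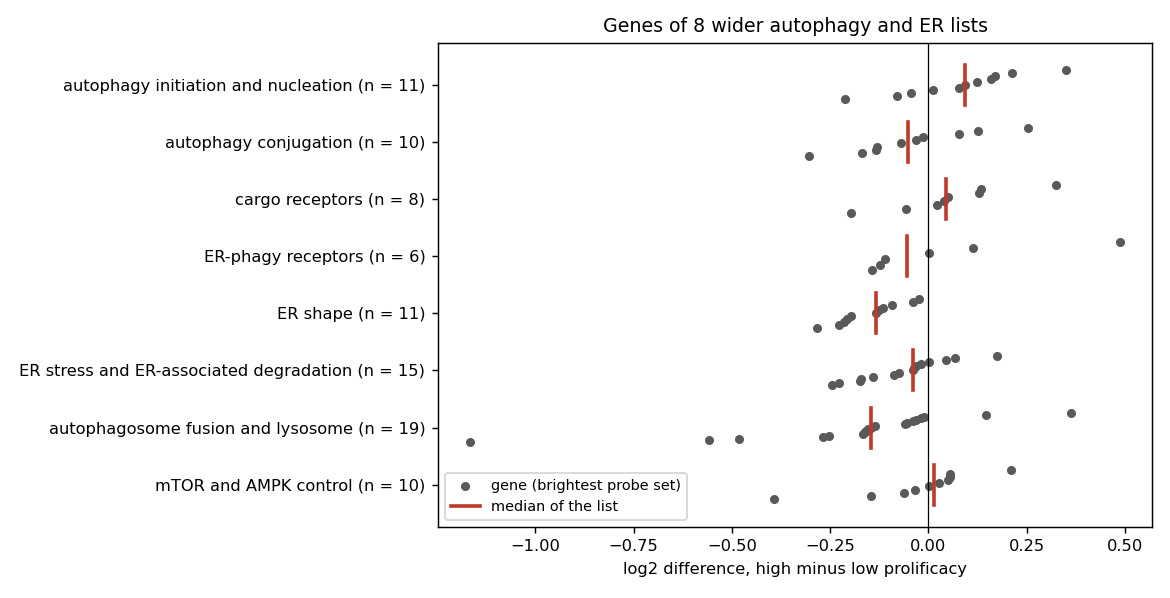
Log2 difference, high minus low prolificacy (horizontal axis), of the tested genes of 8 lists, 1 point per gene by its brightest probe set, with the median of each list as a red bar. All 11 ER shape genes and 17 of 19 fusion and lysosome genes lie below 0, against 52.4% of all probe sets tested. The point of MCOLN1 stands apart from those of the other genes at -1.17, while its values in the sows overlapped between the groups.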

How the data were processed

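The values are log2 expression values per probe set that the authors deposited. GCOS and GCRMA are named per the submitters' processing notes, without a version. No header states the scale, and log2 was inferred from values between 0.97 and 15.34. GCRMA draws dim probe sets to a floor, which compresses their differences. The members and lists were chosen with earlier results of these data known.

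Symbols came from the array annotation, in which 10099 probe sets had 1 symbol, 198 several and 13826 none. A match by Entrez ID to RefSeq's table covered 11 of 11 member probe sets and changed 0 symbols. The 124 array controls were left out. The names of 62 porcine controls stood 21 places from their values. With the names moved, the mean gap of 19 like-named spike pairs was 0.493, against 5.17 as deposited, and the 3' differences use the moved names. The 2090 pairs of tested probe sets of 1 gene had a median within-group r of 0.616.

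All 13390 probe sets above 4 in at least 6 sows were fitted in limma 3.58.1 (R 4.3.3; lmFit, eBayes) without covariates, two-sided, with Benjamini-Hochberg adjustment at 0.05. Correlations used 100000 permutations within groups (numpy 2.4.6), two-sided. The fit was tested on simulated data. The genes named are all members, up to 3 genes of each list by smallest p and the brightest, and the 5 most like ATG12 and RTN3. The same animal numbers are used in both groups, and the labels give no pairing. The relatedness of the sows was not examined. Alternatives were other filters, normalizations, moderation, weights, covariates, the animal number as a block, means over probe sets and leaving out sows.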

Additional observations from a re-analysis of the deposited data

Results flagged for a closer look

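Of 22 groups of 6 sows over the 11 member probe sets, 2 had a sow set apart from the rest by Dixon's criterion, where chance flags about 1 in 20. Both were in the ATG12 probe set Ssc.8659.3.S1_at, which lay under the filter level of 4 in every sow. High 1 stood at 2.54, with the next high prolificacy sow at 2.38, and low 5 stood at 2.380, with the next low prolificacy sow at 2.366.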

How the results depend on the processing

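The number of probe sets past the limma adjusted threshold was 0 under every alternative run except without low prolificacy sow 1, where it was 1, so that the count ran from 0 to 1 when each sow was left out. The labels do not say whether the animal numbers pair the sows. Same-numbered sows had correlations of their deviations from -0.46 to 0.17, and 1 of 6 high prolificacy sows correlated best with its own number. Such correlations cannot decide whether the sows were paired, as other differences between sows also enter them. With the replicate block the count was 0. The median of the ER shape list was -0.28 with the 3' difference as a covariate, and its other medians moved by less than the spread between sows. The number of correlated member pairs was 0 with quantile normalization and without low 4 and low 5 (chosen after seeing the data), and 0 to 2 when each sow was left out. The number of relations to tissue and RNA measures was 0 with quantile normalization, 0 without high 2 and high 3 and 1 without low 4 and low 5 (both chosen after seeing the data), and 0 to 4 when each sow was left out. SQSTM1 with the 3' difference turned to an r of -0.0082 without removal of the group mean. In that setting ATG12 with the 3' difference passed, with an r of -0.83 (permutation adjusted p = 0.025). With array weights the MAP1LC3B differences were -0.091 and -0.018 and that of RTN3 Ssc.1080.1.A1_at was -0.196. The cause was not tested.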

Other observations

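The transcripts most like BECN1, named after their values were seen, were found as for ATG12 and RTN3. They were ELOB (r of 0.95 over 12 sows, group means removed), TCEA1 (0.94), PDIA4 (0.92), COPA (0.91) and NDUFS5 (0.90). PDIA4 folds proteins in the ER and COPA coats vesicles that return from the Golgi to the ER. No function is given for ELOB, TCEA1 and NDUFS5, and a shared function was not tested. The r of these transcripts within the high group ran from 0.69 to 0.97. Within the low group, where low 4 and low 5 stand apart, it ran from 0.93 to 0.99. Their high minus low differences ran from -0.13 to 0.0014.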
